A study of Homo sapiens with 14 samples.

Results

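The genes of 10 secreted proteins of inflammation, IL24, IL6, IL8 (the symbol of CXCL8 in these data), IL1A, IL1B, IL11, LIF, CSF2, CXCL1, and CXCL2, were followed through RNA-Seq of MDA-MB-231 cells, an established triple-negative breast cancer (TNBC) line. They are 10 of the 19410 genes in the table and were found by their gene names. They were selected on the TPM of the SIN3A/3B-DKO lines against parental cells, in which IL24 stood highest, so those values are given as a description, without a test. Parental cells were compared with 6 lines edited by CRISPR/Cas9, in pairs for each genotype. SIN3A/3B-DKO1 and SIN3A/3B-DKO2 had both SIN3A and SIN3B targeted, SAP30-KO1 and SAP30-KO2 had SAP30 targeted, MLL1-KO1 and MLL1-KO2 had MLL1 targeted, and every 1 of the 7 conditions had 2 libraries. All cells were untreated and grown in medium with serum. Each edited line is a mixture of several knockout clones raised after puromycin selection, and 2 different guides were used for SAP30 and for MLL1. Only 1 guide is listed for SIN3A and 1 for SIN3B, so the 2 SIN3A/3B-DKO lines are not known to differ in their guides. The parental cells carried no edit, so that an effect of deriving a line and an effect of losing the gene cannot be told apart in a difference that all lines share.

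Cytokines and chemokines are small proteins through which cells signal to themselves and to their neighbors. IL-6, IL-11, and LIF bind receptors that share the chain gp130 and act through JAK kinases and STAT3. IL-24 belongs to the IL-10 family and uses receptors built from IL20RA, IL20RB, and IL22RA1, while IL-1α and IL-1β act through IL1R1 and IL1RAP, and GM-CSF, the product of CSF2, acts through CSF2RA and CSF2RB. IL-8, CXCL1, and CXCL2 recruit neutrophils. Many of these genes are classic targets of the transcription factors AP-1 and NF-κB, and their mRNAs are short-lived. SAP30, SIN3A, and SIN3B are parts of the SIN3 complex, which carries histone deacetylases, and MLL1 is a histone H3 lysine 4 methyltransferase.

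The promoters are shown because the members do not share 1 pattern and differ in the short motifs of AP-1 and NF-κB before their starts. RefSeq promoter sequences existed for 9 of the 10 genes, all but LIF. Those of IL24, the gene with the largest difference, of IL8, IL6, CXCL1, and CXCL2, and of IL1B, which moved against IL24 in several lines, are printed 5′ to 3′ on the strand of the gene, as the 250 bases before the RefSeq start. They come from a RefSeq table of build GRCh38.p14, and each was placed on GRCh37 by an exact match, at chr1:207070538-207070787 for IL24 and chr7:22766569-22766818 for IL6 (both plus strand), chr4:74606036-74606285 for IL8 and chr4:74734860-74735109 for CXCL1 (plus strand), chr4:74964913-74965162 for CXCL2 (minus strand), and chr2:113594357-113594606 for IL1B (minus strand). Capitals mark matches to the AP-1 motif TGANTCA or the κB motif GGANTTTCC, searched on both strands.
IL24: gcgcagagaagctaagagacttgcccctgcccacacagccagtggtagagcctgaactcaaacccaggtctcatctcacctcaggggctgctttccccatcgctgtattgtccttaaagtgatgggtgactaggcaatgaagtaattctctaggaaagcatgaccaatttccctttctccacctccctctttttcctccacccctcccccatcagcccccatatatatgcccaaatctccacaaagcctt
IL8: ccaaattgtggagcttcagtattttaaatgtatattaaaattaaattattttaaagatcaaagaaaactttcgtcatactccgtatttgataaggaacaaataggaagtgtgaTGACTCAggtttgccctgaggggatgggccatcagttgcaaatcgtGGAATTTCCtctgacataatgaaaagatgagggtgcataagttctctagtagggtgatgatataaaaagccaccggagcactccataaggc
IL6: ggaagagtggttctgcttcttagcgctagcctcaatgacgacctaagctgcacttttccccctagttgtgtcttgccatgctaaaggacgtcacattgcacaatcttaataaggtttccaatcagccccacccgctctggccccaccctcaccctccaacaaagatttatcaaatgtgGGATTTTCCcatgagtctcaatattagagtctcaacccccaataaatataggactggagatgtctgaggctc
CXCL1: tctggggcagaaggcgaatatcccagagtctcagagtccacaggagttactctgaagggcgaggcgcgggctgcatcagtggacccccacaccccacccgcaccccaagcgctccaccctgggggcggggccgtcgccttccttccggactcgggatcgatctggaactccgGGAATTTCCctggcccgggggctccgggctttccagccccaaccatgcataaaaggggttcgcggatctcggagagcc
CXCL2: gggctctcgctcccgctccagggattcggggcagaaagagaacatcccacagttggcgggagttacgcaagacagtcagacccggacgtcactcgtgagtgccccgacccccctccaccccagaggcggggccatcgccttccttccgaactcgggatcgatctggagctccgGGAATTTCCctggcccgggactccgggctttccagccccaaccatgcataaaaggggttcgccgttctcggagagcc
IL1B: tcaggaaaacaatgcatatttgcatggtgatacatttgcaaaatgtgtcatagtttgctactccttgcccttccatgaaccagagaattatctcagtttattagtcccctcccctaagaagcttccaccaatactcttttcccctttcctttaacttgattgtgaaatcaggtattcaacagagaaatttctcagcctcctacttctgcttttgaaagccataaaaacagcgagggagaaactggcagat

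The κB motif was present in 4 of the 9 promoters, those of IL6, IL8, CXCL1, and CXCL2, and in 1.5% of 27305 RefSeq promoters of the same length. The AP-1 motif was present in 3 of the 9, those of IL8, IL1A, and IL11, and in 6.6% of all promoters. IL8 alone among the 9 held both, the AP-1 match 137 bases and the κB match 91 bases before the start. CXCL1 and CXCL2 have near copies of the same proximal promoter, with 57 of the last 60 bases identical. Neither motif was found in the window of IL24, IL1B, or CSF2, which says only that these letters are not in these 250 bases. A match is a description of the sequence and not evidence that a factor binds there.

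**Figure D1:**
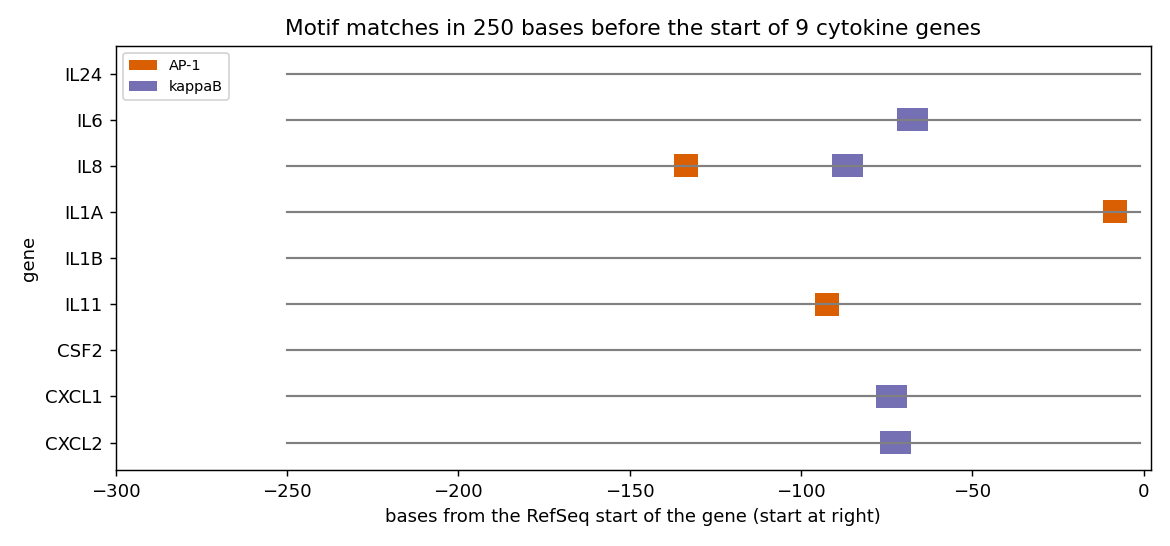
Matches to the AP-1 motif (orange) and the κB motif (purple) in the promoters of 9 cytokine genes, drawn by distance in bases from the RefSeq start. The κB matches of IL6, IL8, CXCL1, and CXCL2 all lie within 91 bases of the start, and the lines of IL24, IL1B, and CSF2 are empty.

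The unit of level is TPM, a share of reads corrected for transcript length, so that different genes can be compared with each other. Whole reads could be recovered from the values, with 18415036 to 23162682 per library. Vimentin (VIM, 5741 to 8805 TPM), CD44, EGFR, CAV1, and AXL were abundant in every library and the hormone receptors ESR1 and PGR stayed at or below 0.191 TPM, as known for this line. Other luminal markers were present in every library. KRT8 lay at 105 to 419 TPM, KRT18 at 363 to 777 TPM, and KRT19 at 109 to 444 TPM. ERBB2 lay at 21.9 to 42.8 TPM and EPCAM at 5.33 to 19.2 TPM. Of 8 leukocyte markers measured, only CD14 and LYZ passed the expression filter, and PTPRC reached at most 0.603 TPM. The summed level of those 8 was 3.58 to 4.28 TPM in parental cells, 6.02 to 7.54 in the SAP30-KO lines, 3.65 to 5.66 in the SIN3A/3B-DKO lines, and 6.45 to 7.45 in the MLL1-KO lines. Luminal epithelial markers were called lower than in parental cells in all lines, 4 to 6 of the 6 tested, where 7.56% to 16.3% of all genes were called lower, and the part of that shift in the cytokine levels was not tested. One of the 6, CDH1, passed the filter only through parental cells, at 1.07 and 1.24 TPM. In bulk RNA, fewer cells that make a transcript and less transcript per cell cannot be told apart. The targeted genes followed the labels in part: SAP30 was 78.9 and 82.8 TPM in parental cells and 2.75 to 4.96 TPM in the SAP30-KO lines, and KMT2A, listed as MLL, fell from a mean of 52.8 TPM to 16.6 and 26.7 TPM in the MLL1-KO lines. KMT2A was also called lower in the SAP30-KO lines, at means of 27.3 and 33.4 TPM (-0.95 and -0.65 on the log2 scale), so that its level in SAP30-KO1 was close to that in MLL1-KO2. In the SIN3A/3B-DKO lines SIN3B was lower (43.5 to 50.2 against 75.1 and 77.4 TPM), but SIN3A mRNA was higher (55.1 to 62.5 against 43.1 and 45.4 TPM), so the mRNA of SIN3A does not check that edit. The authors state that their knockout cells were checked by immunoblot, which measures protein.

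The cytokines covered a wide range in parental cells. IL11 and LIF were the most abundant at means of 63.8 and 43.8 TPM, IL8 followed at 18.3 TPM, and IL24, CSF2, IL6, and CXCL1 lay between 4.27 and 5.68 TPM. IL1B and CXCL2 were low at 2.07 and 1.76 TPM. IL1A was at the floor with 7 or 8 reads in each parental library and 2 to 23 reads across the 14 libraries, and it passed the filter of 1 TPM in at least 2 libraries through MLL1-KO2 only.

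**Figure D2:**
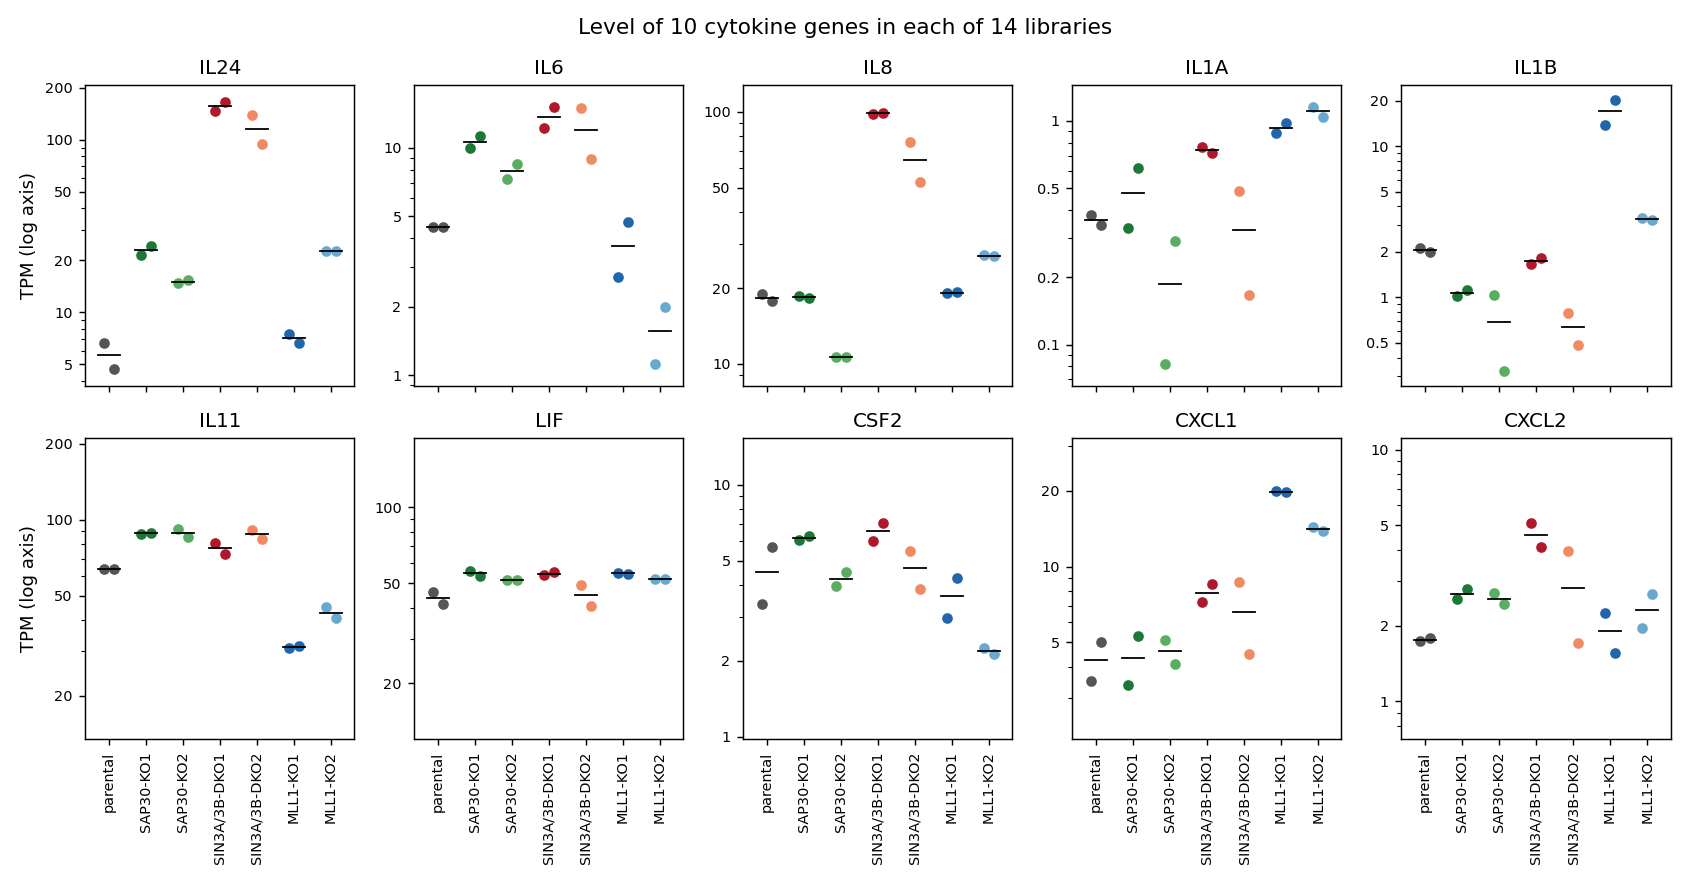
TPM of the 10 cytokine genes in each of the 14 libraries, on log axes that differ between panels, with points for libraries and black bars for the mean of each condition. IL24 lies at 94.0 to 166 TPM in the 4 SIN3A/3B-DKO libraries and at or below 24.2 TPM in all others, whereas IL1B and CXCL1 are highest in MLL1-KO1.

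SIN3A/3B-DKO cells had by far the highest IL24, and with it the highest mean levels of IL8, IL6, and CXCL2. IL24, which can drive cell death or inflammatory signaling depending on the cell, measured 6.68 and 4.69 TPM in parental cells, 146 and 166 TPM in SIN3A/3B-DKO1, then 138 and 94.0 TPM in SIN3A/3B-DKO2. The groups are far apart, and the mean was 27.4-fold and 20.4-fold the parental mean. IL24 thereby passed from the level of CSF2 to above IL11, the most abundant member in parental cells, whose mean was 77.1 and 87.5 TPM in the same lines.

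IL8, the neutrophil chemokine, was 18.9 and 17.8 TPM in parental cells, 98.5 and 98.8 TPM in SIN3A/3B-DKO1, but 75.8 and 52.5 TPM in SIN3A/3B-DKO2. All 4 double knockout libraries lay above the other 10, at 5.38-fold and 3.50-fold the parental mean. IL6 was 4.46 TPM in both parental libraries, 12.2 and 15.1 TPM in SIN3A/3B-DKO1, then 14.9 and 8.91 TPM in SIN3A/3B-DKO2. These lie above parental cells in all 4 libraries and overlap the SAP30-KO1 libraries. CXCL2 was 1.73 and 1.78 TPM in parental cells, 5.09 and 4.11 TPM in SIN3A/3B-DKO1, then 3.95 and 1.71 TPM in SIN3A/3B-DKO2, so that the second of these lines overlapped parental cells. CXCL1 was 3.50 and 5.03 TPM in parental cells, 7.21 and 8.49 TPM in SIN3A/3B-DKO1, then 8.67 and 4.48 TPM in SIN3A/3B-DKO2, again with overlap in the second line only. CXCL1, CXCL2, and CXCL3 are close paralogs, and how the authors' counting divided reads between them is uncertain.

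The other members were nearer to parental cells. IL1A had 19 and 17 reads in SIN3A/3B-DKO1, 12 and 4 reads in SIN3A/3B-DKO2, and 8 and 7 reads in parental cells. IL11 was 1.21-fold and 1.37-fold, LIF 1.246-fold and 1.03-fold, and CSF2 1.45-fold and 1.03-fold the parental mean, for SIN3A/3B-DKO1 and then for SIN3A/3B-DKO2. IL1B was 2.14 and 2.002 TPM in parental cells, 1.65 and 1.81 TPM in SIN3A/3B-DKO1, then 0.793 and 0.486 TPM in SIN3A/3B-DKO2, so it was the 1 member whose libraries lay below the parental ones in both lines. On the scale of log2(TPM + 0.5), the differences were 4.68 and 4.23 (SE 0.18) for IL24, 2.40 and 1.76 (SE 0.12) for IL8, and 1.51 and 1.28 (SE 0.28) for IL6.

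**Figure D3:**
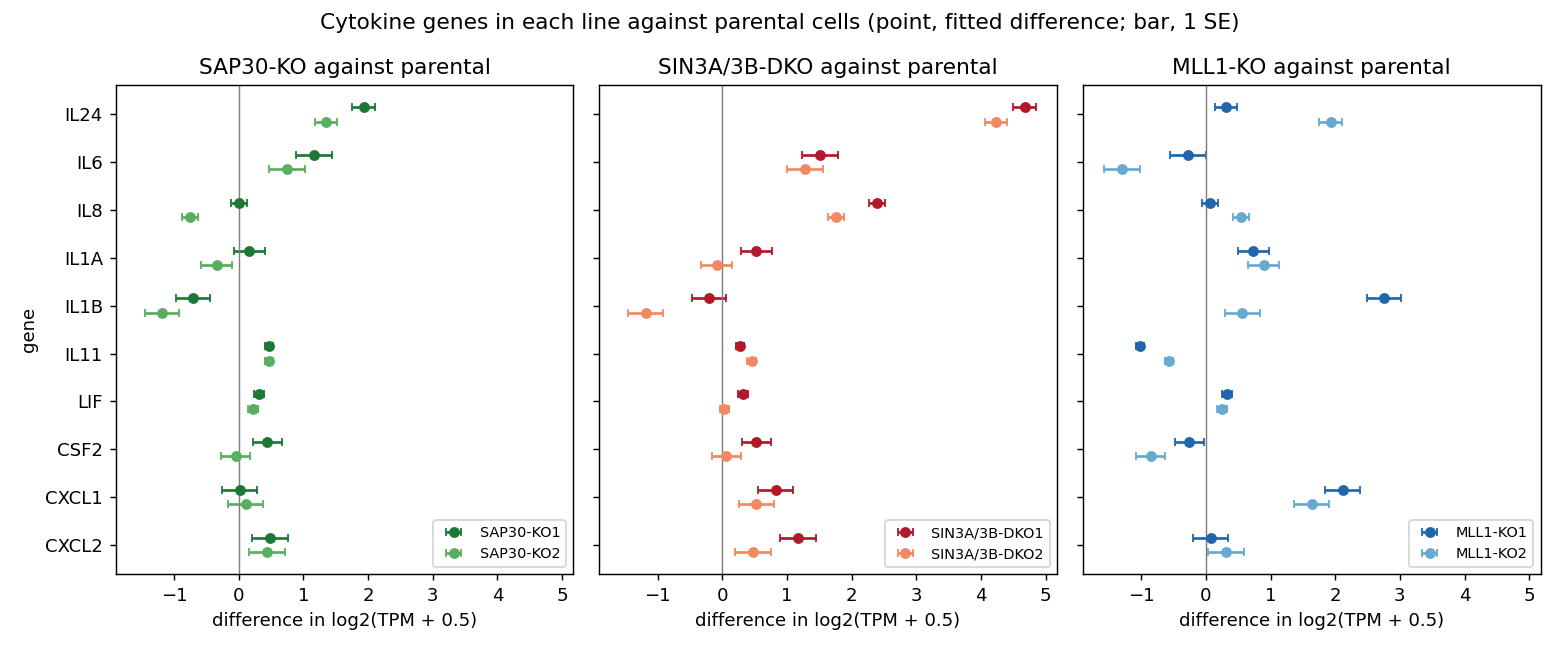
Fitted differences of the 10 cytokine genes from parental cells in log2(TPM + 0.5), with bars of 1 SE, for the 2 lines of each genotype. IL24 reaches 4.68 in SIN3A/3B-DKO1 and is above 0 in all 6 lines, while IL11 is below 0 in both MLL1-KO lines and above 0 in the other 4.

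The libraries of SIN3A/3B-DKO2 did not agree as well as those of the other lines. All 10 cytokines were lower in replicate 2 than in replicate 1, with a median difference of -0.54 on the log2 scale, against 0.01 over all genes tested. Of the 10, 3 were lower by at least 1.5-fold on the scale of log2(TPM + 0.5) (IL6, CXCL1, and CXCL2), as were 2.27% of all genes. In plain TPM replicate 1 was also 2.94-fold replicate 2 for IL1A and 1.63-fold for IL1B, at 4 to 12 and 6 to 10 reads. In the other 6 conditions the cytokine median lay between -0.03 and 0.10. Counting noise was exceeded in all conditions, and the chi-square per degree of freedom between replicates was 8.08 in SIN3A/3B-DKO2 and 1.48 to 3.80 elsewhere. Without replicate 2 the difference of SIN3A/3B-DKO2 from parental cells was 4.51 for IL24, 2.02 for IL8, and 1.64 for IL6, and without replicate 1 it was 3.95, 1.49, and 0.92.

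**Figure D4:**
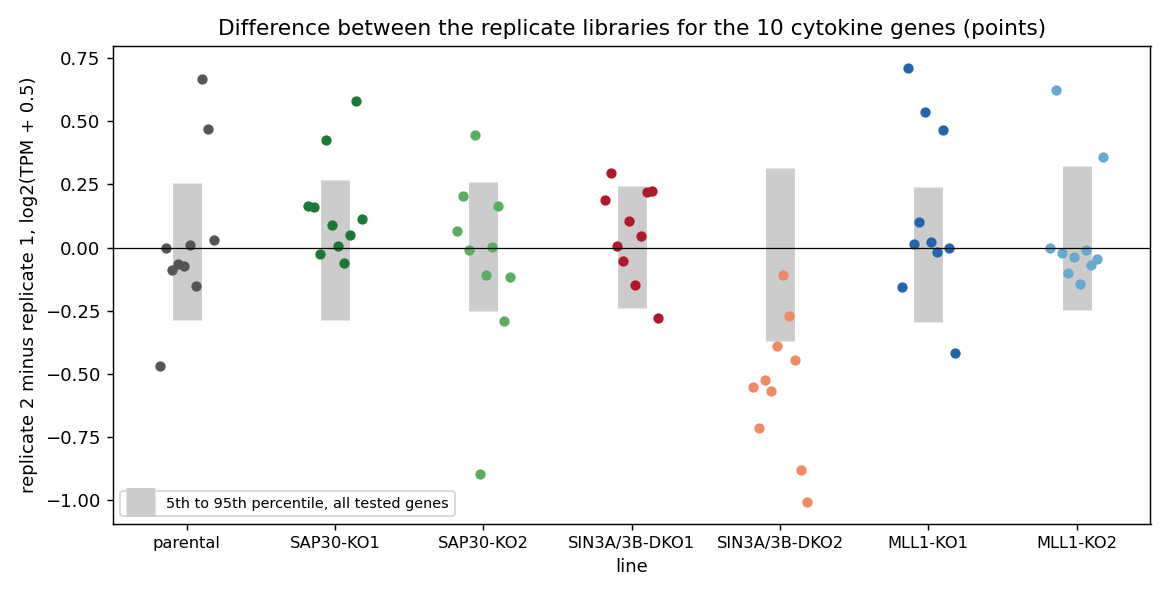
Difference between replicate 2 and replicate 1 in log2(TPM + 0.5) for the 10 cytokine genes (points) in each condition, beside the range from the 5th to the 95th percentile of all tested genes (gray bars). In SIN3A/3B-DKO2 all 10 points lie below 0, with a median of -0.54.

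SIN3A/3B-DKO1 and SIN3A/3B-DKO2 were also compared with each other, which the choice of members did not use. IL8 and IL1B were higher in SIN3A/3B-DKO1, by 0.64 (SE 0.12, adjusted p = 0.00762) and 0.98 (SE 0.27, adjusted p = 0.0369) on the log2 scale. These are 2 of 10 members, where 2.23% of all genes were called between the 2 lines. The IL1B call was lost without any 1 of 9 of the 14 libraries. It was also lost with no filter on low values (adjusted p = 0.0626) and with voom on the recovered reads (adjusted p = 0.0621). IL24 differed by 0.45 (SE 0.18, adjusted p = 0.122) and was not called. Without replicate 2 of SIN3A/3B-DKO2 IL8 differed by 0.38 (adjusted p = 0.00338, under 1.5-fold) and IL1B by 0.79 (adjusted p = 0.216), so that both calls were lost, as they were without either library of SIN3A/3B-DKO1, whereas 5 members were called without replicate 1 of SIN3A/3B-DKO2.

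In SAP30-KO cells IL24 and IL6 rose to intermediate levels and IL1B fell, while IL8 fell in 1 of the 2 lines. IL24 was 21.5 and 24.2 TPM in SAP30-KO1 and 14.7 and 15.4 TPM in SAP30-KO2, all above the 4.69 and 6.68 TPM of parental cells and all below SIN3A/3B-DKO cells. The rise was 1.93 (SE 0.18, adjusted p = 5.75e-06) in SAP30-KO1 and 1.35 (adjusted p = 7.97e-05) in SAP30-KO2 on the log2 scale, and the 2 lines did not differ by the test (0.58, adjusted p = 0.219). IL24 kept its call without each library in turn, at 1.70 to 2.17 in SAP30-KO1 and 1.12 to 1.58 in SAP30-KO2. A call needed an adjusted p under 0.05 and a 1.5-fold change among the 13540 genes tested with limma. The calls of SAP30-KO1 numbered 3 of 10 against 15.7% of all genes, and those of SAP30-KO2 4 of 10 against 15.6%.

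IL6 was 9.98 and 11.2 TPM in SAP30-KO1 and 7.28 and 8.45 TPM in SAP30-KO2, against 4.46 TPM in both parental libraries. It rose by 1.16 (SE 0.28, adjusted p = 0.00526) and 0.75 (adjusted p = 0.0439). The call in SAP30-KO2 was lost under several other settings, with adjusted p up to 0.335. IL6 lies on the short arm of chromosome 7, where the 51 genes around it had median differences of 0.43 and 0.36 in the 2 SAP30-KO lines, 0.33 and 0.42 in the SIN3A/3B-DKO lines, and -0.27 and -0.36 in the MLL1-KO lines. With the running median of those neighbors subtracted, IL6 differed by 0.72 (adjusted p = 0.0731) and 0.38 (adjusted p = 0.335) in the SAP30-KO lines and was not called.

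IL1B, which encodes IL-1β, was 1.02 and 1.12 TPM in SAP30-KO1 and 1.04 and 0.326 TPM in SAP30-KO2, below both parental libraries. It decreased by 0.71 (SE 0.27, adjusted p = 0.0446) and 1.19 (adjusted p = 0.00331), from 4 to 23 reads per library, and the call in SAP30-KO1 was lost under most alternatives, the replicate block among them (adjusted p = 0.0537). IL8 separated the 2 lines. It was 18.6 and 18.2 TPM in SAP30-KO1, inside the parental range, and 10.7 and 10.6 TPM in SAP30-KO2, the lowest of the 14 libraries, a decrease of 0.76 (SE 0.12, adjusted p = 0.000382). It was the only member called between the lines (0.76, adjusted p = 0.0305), where 0.148% of all genes were called, and this call was lost without any of 12 of the 14 libraries, with adjusted p up to 0.193. IL11 rose from 63.6 and 64.0 TPM to 88.1 and 88.6 TPM in SAP30-KO1 and to 91.9 and 85.1 TPM in SAP30-KO2. That change of 0.47 in both lines passed the test (adjusted p = 0.000112 and 0.000109) and stayed under the 1.5-fold minimum, as did LIF at 0.32 and 0.23 (adjusted p = 0.00514 and 0.0285). CSF2, CXCL1, CXCL2, and IL1A were not called in either line, with differences between -0.34 and 0.49.

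MLL1-KO cells showed another set, in which CXCL1 rose in both lines, IL11 was lower in both, and IL24 and IL1B each rose in a different line. CXCL1 was 19.9 and 19.8 TPM in MLL1-KO1 and 14.4 and 13.9 TPM in MLL1-KO2, above all 10 other libraries, the highest of which had 8.67 TPM. It rose by 2.11 (SE 0.27, adjusted p = 4.98e-05) and 1.64 (adjusted p = 0.000304). CXCL2, its paralog, stayed between 1.55 and 2.66 TPM and was not called (0.07 and 0.31, SE 0.28). Called were 4 of 10 members in MLL1-KO1, where 23.2% of all genes were called, and 5 of 10 in MLL1-KO2, where 25.2% were. IL1A is among both and passed the filter only through MLL1-KO2, and without it the calls were 3 and 4 of 9.

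IL11 was 31.1 and 31.6 TPM in MLL1-KO1 and 44.9 and 40.6 TPM in MLL1-KO2, below the 63.6 and 64.0 TPM of parental cells and below every library of the other lines. It decreased by 1.02 (SE 0.06, adjusted p = 1.61e-07) in MLL1-KO1, and by 0.57 (adjusted p = 1.44e-05) in MLL1-KO2, which is just short of 1.5-fold. IL1B was 13.8 and 20.3 TPM in MLL1-KO1, above all other libraries, and 3.35 and 3.25 TPM in MLL1-KO2. Its rise was 2.75 (SE 0.27, adjusted p = 5.35e-06) in MLL1-KO1 and 0.57 (adjusted p = 0.0842) in MLL1-KO2. IL24 went the opposite way, with 7.50 and 6.67 TPM in MLL1-KO1, overlapping parental cells, and 22.8 and 22.7 TPM in MLL1-KO2, within the range of SAP30-KO1. It differed by 0.31 (SE 0.18, adjusted p = 0.149) in MLL1-KO1 and rose by 1.93 (adjusted p = 2.95e-06) in MLL1-KO2.

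IL6 was 2.69 and 4.73 TPM in MLL1-KO1 and 1.12 and 1.999 TPM in MLL1-KO2, and in the latter it decreased by 1.30 (SE 0.28, adjusted p = 0.00185). The 51 genes around IL6 had a median of -0.36 in MLL1-KO2. Over the alternatives other than leaving out a library, with subtraction of that median among them, IL6 there was -1.51 to -0.91. CSF2, which encodes GM-CSF, was 3.37 and 5.64 TPM in parental cells and 2.26 and 2.13 TPM in MLL1-KO2, a decrease of 0.86 (SE 0.23, adjusted p = 0.00631) that was not called without replicate 2 of parental cells (-0.52, adjusted p = 0.0715). IL1A, another IL-1 ligand, counted 7 and 8 reads in parental cells and 21 to 23 reads in each of the MLL1-KO libraries, which were the 4 highest. It was called at 0.73 (SE 0.24, adjusted p = 0.0219) and 0.90 (adjusted p = 0.00707), but was tested at all only through its values in MLL1-KO2, and the call in MLL1-KO1 was lost at a pseudocount of 1 (0.50) and without any of the 4 libraries compared. IL8 at 27.1 and 26.7 TPM in MLL1-KO2 was higher by 0.54 (adjusted p = 0.00254), short of 1.5-fold. LIF, at 51.7 to 55.1 TPM in these lines, was higher by 0.32 and 0.24 and was not past 1.5-fold in any line.

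Tested against each other, MLL1-KO1 and MLL1-KO2 differed in 3 of 10 members, where 10.4% of all genes were called. IL1B was higher in MLL1-KO1 by 2.18 (SE 0.27, adjusted p = 8e-05) and IL6 by 1.02 (SE 0.28, adjusted p = 0.0131), whereas IL24 was lower by 1.62 (SE 0.18, adjusted p = 3.46e-05). The IL24 and IL1B differences were called without each library in turn. The IL6 difference was lost without replicate 1 of MLL1-KO2 or replicate 2 of MLL1-KO1 and ranged from 0.67 to 1.38. CXCL1 did not differ by the test (0.48, SE 0.27, adjusted p = 0.186).

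The MLL1-KO lines were next compared with the SAP30-KO lines, without parental cells. IL1B (2.61, SE 0.19, adjusted p = 3.32e-07), CXCL1 (1.81, SE 0.19, adjusted p = 7.76e-06), and IL8 (0.68, SE 0.09, adjusted p = 3.55e-05) were higher in the mean of the MLL1-KO lines. IL6 was lower by 1.75 on the log2 scale (SE 0.20, adjusted p = 1.38e-05), IL11 by 1.26 (SE 0.04, adjusted p = 1.08e-09), and CSF2 by 0.76 (SE 0.16, adjusted p = 0.00142). These are 6 of the 9 members that reached 1 TPM in more than 1 condition, beside 19.8% of all genes, and they were called without each library in turn. IL1A, with 21 to 23 reads in MLL1-KO libraries and 2 to 14 reads in SAP30-KO libraries, was 0.90 higher (SE 0.17) and is given as a description, because it passed the filter only through MLL1-KO2 and with either library of that line left out it would not pass. With the fold minimum raised to 2-fold the count was 4, and CSF2 was not called under quantile normalization (-0.54, adjusted p = 0.0131). IL24 was lower by 0.52 (SE 0.12, adjusted p = 0.0032), under the minimum of 1.5-fold. The genes around IL6 had shifted up in the SAP30-KO lines and down in the MLL1-KO lines. Over the alternatives other than leaving out a library, with subtraction of the neighborhood median among them, IL6 ranged from -1.925 to -0.979 in this contrast. The contrast averages lines that differ by the tests given above, the MLL1-KO lines in IL24, IL1B, and IL6 and the SAP30-KO lines in IL8. For IL8 the means of MLL1-KO1 and SAP30-KO1 were close, at 19.2 and 18.4 TPM, whereas those of MLL1-KO2 and SAP30-KO2 were 26.9 and 10.6 TPM.

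The order of IL24 over the conditions ran from SIN3A/3B-DKO1 and SIN3A/3B-DKO2 at means of 156 and 116 TPM, through SAP30-KO1 and MLL1-KO2 at 22.8 and 22.7 TPM and SAP30-KO2 at 15.1 TPM, to MLL1-KO1 and parental cells at 7.09 and 5.68 TPM. The libraries of SAP30-KO1 and MLL1-KO2 overlapped, as did those of MLL1-KO1 and parental cells, and the test did not separate the SIN3A/3B-DKO lines from each other. Over the 14 libraries, which fall into 7 pairs of replicates and are described here without a test, the log2 levels of IL24 followed those of IL8 (Pearson r = 0.87) and CXCL2 (r = 0.75), IL6 followed CSF2 (r = 0.88), and IL1B ran with CXCL1 (r = 0.82) and against IL11 (r = -0.93). The 5 tested genes most like IL24 in this measure were NELFE (r = 0.977), THBD (r = 0.971), SH3BP5L (r = 0.970), BABAM1 (r = 0.969), and ATP6V1B2 (r = 0.969), all of far smaller range. THBD, which encodes thrombomodulin, went from a mean of 43.9 TPM in parental cells to 90.4 TPM in SIN3A/3B-DKO1, then NELFE, a subunit of the negative elongation factor, from 24.2 to 37.1 TPM. All r with IL24 include the SIN3A/3B-DKO libraries, on which the members were selected. IL24 also rose in SAP30-KO1, SAP30-KO2, and MLL1-KO2. The mean of IL8 there was 18.4, 10.6, and 26.9 TPM, against 18.3 TPM in parental cells.

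IL24 stands in the IL-10 family cluster at chr1:207070788-207077484 (GRCh37, plus strand), and its cluster mates were silent. IL10, IL19, and IL20 stayed at or below 0.171 TPM in every library. Of 11 table genes within 200 kb, 5 were tested. FAIM3, on the opposite strand and overlapping the 3′ end of IL24, had mean levels of 3.22 TPM in parental cells, 3.79 and 4.41 TPM in the SAP30-KO lines, 6.38 and 5.19 TPM in the SIN3A/3B-DKO lines, and 4.45 and 7.25 TPM in the MLL1-KO lines. FAIM3 was called higher in SIN3A/3B-DKO1 (0.88), SIN3A/3B-DKO2 (0.61), and MLL1-KO2 (1.05). It was not called in SAP30-KO1 (0.20), SAP30-KO2 (0.40), or MLL1-KO1 (0.41). The counting is not stated to use strand, so reads in the overlap cannot be assigned to 1 of the 2 genes, and FAIM3 never exceeded 8.14 TPM. C4BPB, 184721 bases away, fell from a mean of 143 TPM to 0.775 and 1.197 TPM in the MLL1-KO lines, in 1 of which IL24 rose. It was also called lower in SAP30-KO1 (-0.74), SAP30-KO2 (-0.88), and SIN3A/3B-DKO1 (-0.83), where IL24 was higher than in parental cells, and was not called in SIN3A/3B-DKO2 (-0.58). Overlap also affects IL6 (chr7:22765503-22771621), whose opposite-strand neighbor STEAP1B stayed at or below 0.246 TPM. IL8 (chr4:74606236-74609433) and CXCL1 (chr4:74735110-74737025) are neighbors, and so are IL1A (chr2:113531502-113542070) and IL1B (chr2:113587328-113594393). In MLL1-KO1 CXCL1 rose while IL8 was not called, and IL1B was called higher. The IL1A call there was lost without any of the libraries compared, and IL1A passed the filter only through MLL1-KO2. IL11 lies at chr19:55875750-55881831, LIF at chr22:30636442-30642748, CSF2 at chr5:131409482-131411863, and CXCL2 at chr4:74962757-74964913.

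The receptors for these cytokines were unevenly present. The gp130 chain IL6ST was abundant, at a mean of 117 TPM in parental cells, and LIFR stood at 27.2 TPM, IL1RAP at 12.6 TPM, IL11RA at 3.32 TPM, and IL1R1 at 2.47 TPM. The IL-24 receptor chains IL20RA, IL20RB, and IL22RA1 were at 0.344, 0.447, and 0.309 TPM, IL6R at 0.590 TPM, and CSF2RB at 0. Of 6 receptor chains tested, LIFR and IL6ST fell in both MLL1-KO lines (LIFR by -1.07 and -1.09, IL6ST by -0.68 and -0.74 on the log2 scale) and IL1RAP fell in all 6 lines, to means of 6.37 to 7.82 TPM. Called lower were 3 of the 6 in each MLL1-KO line, beside 16.3% and 14.9% of all genes, and 1 in each other line, beside 7.56% to 8.66%. Called higher were 0 to 2 of the 6, beside 6% to 10.2%. IL1R1 had means of 4.40 and 3.71 TPM in the SAP30-KO lines, 3.79 and 1.52 TPM in the SIN3A/3B-DKO lines, and 3.02 and 5.70 TPM in the MLL1-KO lines. IL20RB rose in both SIN3A/3B-DKO lines (0.71 and 0.70, adjusted p = 0.0179 and 0.0214) and both MLL1-KO lines (0.83 and 1.05, adjusted p = 0.00725 and 0.00157), from 6 or 7 reads to 14 to 25 reads per library. It reached 1 TPM only in those lines and in 1 library of SAP30-KO1, so that it passed the filter through the lines in which it is high.

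Among 14 signal transducers, STAT5A and STAT5B, which carry cytokine signals to the nucleus, fell in all 6 lines, STAT5A from a mean of 11.8 TPM to between 2.16 and 3.56 TPM. STAT3, the main transducer below gp130, fell past 1.5-fold in the MLL1-KO lines only (-1.06 and -0.78), from a mean of 154 TPM, and read 103 to 115 TPM in the other lines. IRAK1, a kinase below IL1R1, rose in both MLL1-KO lines. Of the 14, 2 or 3 were called lower in each line, beside 7.56% to 16.3% of all genes. Called higher were 2 and 1 in the MLL1-KO lines, beside 6.89% and 10.2%, and 0 in the other lines. Of 7 genes of IL-1β processing tested, CASP1, the protease that cleaves pro-IL-1β, and its adaptor PYCARD fell in all 6 lines, including MLL1-KO1, where IL1B rose. CASP1 went from 6.50 TPM to 0.929 TPM in SIN3A/3B-DKO1 and 1.48 TPM in MLL1-KO1, and CASP4 and CAPN1 fell in both SAP30-KO lines. Of the 7, 2 to 4 were called lower in each line, beside 7.56% to 16.3% of all genes. In MLL1-KO2 2 of the 7 were called higher, beside 10.2% of all genes, and 0 in the other lines. NLRP3, named after its value was seen, had a mean of 13.3 TPM in MLL1-KO2 and 4.92 TPM in parental cells. CASP4 had means of 170 and 110 TPM there.

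Of the genes of AP-1, NF-κB, and C/EBP, more were called higher than lower in 5 of the 6 lines. Of 17 tested, 5 and 4 were called in the SAP30-KO lines, all higher, and 5 and 6 rose and 1 fell in each of the MLL1-KO lines, beside 7.80%, 7.44%, 6.89%, and 10.2% of all genes that rose. JUN rose in both SAP30-KO lines (0.64 and 0.76) and both MLL1-KO lines (1.11 and 1.36), JUNB likewise (0.68 and 0.69, then 0.96 and 1.15), and FOS and FOSB rose in both MLL1-KO lines. In SIN3A/3B-DKO1 7 were called, all higher, where 16.4% of all genes were called and 7.76% were higher. In SIN3A/3B-DKO2 2 were called, CEBPD and BCL3, both lower, where 13.6% of all genes were called and 7.56% were lower. Without replicate 2 of SIN3A/3B-DKO2 CEBPD and BCL3 were still lower and 2 were higher, ATF3 and CEBPB. Tested directly, the SIN3A/3B-DKO lines differed in 1 of the 17, RELB, a subunit of NF-κB (0.87, SE 0.14, adjusted p = 0.00263), and RELB, CEBPD, BCL3, and ATF3 are named after their values were seen. IL24 was at or above 94.0 TPM in all libraries of both lines, and a link between these genes and IL24 was not tested.

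Of 11 inhibitors of cytokine signaling tested, TNFAIP3, which restrains NF-κB, rose in both SIN3A/3B-DKO lines (1.14 and 0.71) and both MLL1-KO lines (0.93 and 1.22). DUSP1, a phosphatase of MAP kinases, fell in both SAP30-KO lines (-0.91 and -1.29) and both MLL1-KO lines (-1.78 and -2.50), as did SOCS2, and SOCS1 rose in the MLL1-KO lines (1.199 and 1.56). In each SAP30-KO line 0 of the 11 rose and 2 fell, where 7.86% and 8.12% of all genes fell. In MLL1-KO1 3 rose and 4 fell, beside 6.89% and 16.3%, and in MLL1-KO2 2 rose and 2 fell, beside 10.2% and 14.9%. In each SIN3A/3B-DKO line 1 rose and 1 fell, beside 7.76% and 8.66%, then 6% and 7.56%. Of 10 genes of mRNA decay, which act on the unstable cytokine mRNAs, ZFP36L1 (1.15 and 1.45) and ZC3H12A (1.03 and 0.74) rose in the MLL1-KO lines. These were 2 of the 10 in each line, where 6.89% and 10.2% of all genes rose. In SIN3A/3B-DKO1 1 of the 10 rose, beside 7.76%, and 0 were called in the remaining lines.

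Among other cytokines and chemokines, 40 had values and 19 were tested. In MLL1-KO1 1 rose and 8 fell, where 6.89% of all genes rose and 16.3% fell, and in MLL1-KO2 2 rose and 9 fell, beside 10.2% and 14.9%. In SAP30-KO1 2 rose and 2 fell, beside 7.80% and 7.86% of all genes, and in SAP30-KO2 1 rose and 1 fell, beside 7.44% and 8.12%. CSF3, the granulocyte growth factor G-CSF, rose from 1.57 and 1.62 TPM to 31.3 and 32.5 TPM in MLL1-KO1 and 36.2 and 43.9 TPM in MLL1-KO2 (3.95 and 4.27, SE 0.30). IL18, an IL-1 family cytokine that CASP1 also processes, fell from 67.2 and 74.9 TPM to between 3.69 and 5.88 TPM in the MLL1-KO libraries, and less far in the SAP30-KO lines (-1.05 and -1.19) and the SIN3A/3B-DKO lines (-0.79 and -0.62). TNFSF10, TNFSF15, CCL26, CCL28, IL12A, EBI3, and CSF1 fell in both MLL1-KO lines, CSF1 rose in both SAP30-KO lines (0.66 and 0.63), and IL32 rose in both SIN3A/3B-DKO lines (1.28 and 0.65). In SIN3A/3B-DKO1 4 of the 19 rose and 3 fell, beside 7.76% and 8.66% of all genes. The largest of these rises was 1.29 (SE 0.41, adjusted p = 0.0209) for IL23A, named after its value was seen. IL23A had 3 and 6 reads in parental cells (0.411 and 0.801 TPM) and 13 and 26 reads in SIN3A/3B-DKO1 (1.47 and 3.08 TPM). It stayed under 1 TPM in every parental and MLL1-KO library. Its entry into the test therefore rested in part on the high values being compared. In SIN3A/3B-DKO2 2 rose and 2 fell, beside 6% and 7.56%, with 1 and 4 called without replicate 1 and 0 and 2 without replicate 2, and the call of IL32 in that line was lost in both cases.

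**Figure D5:**
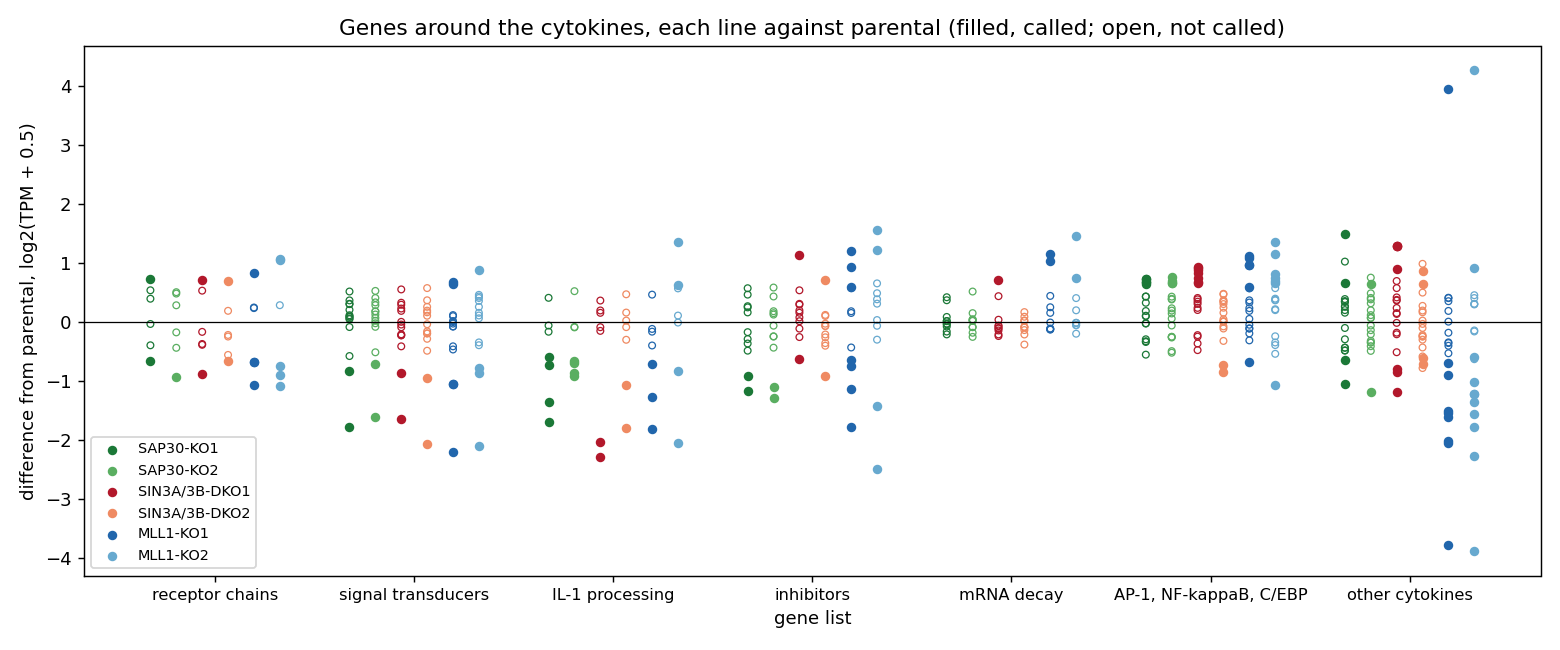
Differences from parental cells in log2(TPM + 0.5) for the tested genes of 7 lists around the cytokines, with 1 column of points per line, filled where called and open where not. In MLL1-KO cells CSF3 stands near 4 and IL18 near -3.8, and the AP-1, NF-κB, and C/EBP genes called in SIN3A/3B-DKO1 are all above 0.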

How the data were processed

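RNA-Seq of 14 MDA-MB-231 libraries in 7 conditions was used. The authors prepared mRNA libraries with a KAPA kit and deposited 1 value per gene and library, named RPKM; every library sums to 1000000, so the deposited values were used as TPM. Processing notes of the submitters name FastQC 0.11.2, TopHat, featureCounts, and hg19, without their order or settings. TPM have a fixed total, so a rise of some genes lowers the rest, and a change in total RNA cannot be seen. Whole reads were recovered for 18519 of 18519 genes (100.0%, tolerance 0.02 read).

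Genes with at least 1 TPM in at least 2 libraries (13540) were fitted as log2(TPM + 0.5) by limma 3.58.1 (R 4.3.3) with a mean-variance trend and a mean for each of 7 conditions, from all 14 libraries at once. A call needs a Benjamini-Hochberg adjusted p under 0.05 over all genes tested and a 1.5-fold change. The design had been written for RPKM and was kept. Fold changes on this scale understate those of low genes. Nothing states that replicates came from separate cultures, so p-values measure only the spread between these libraries, and all lines share the same 2 parental libraries. The procedure was run on simulated data with the same small spread in every library. That setting differs from the unequal spread between replicates seen here, so it does not check the calls under such spread.

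The members and lists were chosen with earlier results of these data known. Named are the 10 members, the targeted genes, up to 4 genes per related list called in the same direction in both lines of a genotype (largest mean change first), receptor chains by value, other cytokines called in both lines of a genotype, the 5 genes most correlated with IL24, and neighbors within 200 kb. Positions are GENCODE 44 on GRCh37. Alternatives were pseudocounts of 0.1 and 1, no filter, quantile normalization, median-ratio scaling, other fold minimums, a replicate block, only the libraries compared, each library left out, and voom on the recovered reads; subtraction of a running median of 51 neighboring genes was chosen after seeing the data.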

Additional observations from a re-analysis of the deposited data

Results flagged for a closer look

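Differences between lines of 1 genotype, or between genotypes, passed the call threshold in a direct comparison for 13 values, given on the log2 scale with adjusted p from limma. Between the MLL1-KO lines these were IL24 (-1.62 in MLL1-KO1 against MLL1-KO2), IL6 (1.02), and IL1B (2.18). Between the SIN3A/3B-DKO lines they were IL8 (0.64, adjusted p = 0.00762) and IL1B (0.98, adjusted p = 0.0369), and between the SAP30-KO lines IL8 (0.76, adjusted p = 0.0305). In the MLL1-KO lines against the SAP30-KO lines they were IL6 (-1.75), IL8 (0.68), IL1A (0.90), IL1B (2.61), IL11 (-1.26), CSF2 (-0.76), and CXCL1 (1.81). IL1A, 1 of the 13, passed the expression filter only through MLL1-KO2, so its value is a description and not the result of a test. With 2 libraries per condition, no library could be tested as an outlier.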

How the results depend on the processing

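The 8 counts of cytokines called were 3 and 4 (SAP30-KO1 and SAP30-KO2 against parental), 4 and 5 (MLL1-KO1 and MLL1-KO2 against parental), 7 with IL1A (MLL1-KO against SAP30-KO), and 1, 2, and 3 between the SAP30-KO, SIN3A/3B-DKO, and MLL1-KO lines. With a 2-fold minimum 2 were called in SAP30-KO2, 3 in MLL1-KO2, 4 between MLL1-KO and SAP30-KO, and 0 between the SAP30-KO lines and 0 between the SIN3A/3B-DKO lines. With no fold minimum 5 were called in SAP30-KO1, 8 in MLL1-KO2, and 5 between the MLL1-KO lines. With no filter on low values and with voom on recovered reads 0 were called between the SAP30-KO lines and 1 between the SIN3A/3B-DKO lines, and with only the libraries compared 0 and 0. With the neighborhood running median subtracted, 1 was called in SAP30-KO1 and 0 between the SAP30-KO lines. Leaving out 1 library at a time gave 2 to 3 (SAP30-KO1), 3 to 4 (SAP30-KO2), 3 to 4 (MLL1-KO1), 4 to 6 (MLL1-KO2), 7 to 7 (MLL1-KO against SAP30-KO), 0 to 1 (between SAP30-KO lines), 0 to 5 (between SIN3A/3B-DKO lines), and 2 to 4 (between MLL1-KO lines), with the filter kept from all 14 libraries.

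Replicate numbers did not pair the libraries (mean correlation of deviations 0.01 over 21 pairs of groups, -0.07 to 0.08), and the replicate block gave 2 calls in SAP30-KO1, with IL1B at an adjusted p of 0.0537, and left the other 7 counts at the values given. Of 1380 values of single genes under alternatives in these comparisons, 16 changed sign, all of genes not called. Of 460 values of the SIN3A/3B-DKO lines against parental cells, which have no test, 8 changed sign, all in SIN3A/3B-DKO2. In SAP30-KO1 IL8 was -0.031 and CXCL1 -0.021 under median-ratio scaling, in MLL1-KO1 CSF2 was 0.017 under quantile normalization and IL6 0.047 with the neighborhood median subtracted. Leave-one-out values spanned 0 for IL8 (-0.039 to 0.051), IL1A (-0.048 to 0.38), and CXCL1 (-0.28 to 0.30) in SAP30-KO1, CSF2 (-0.38 to 0.29) and CXCL1 (-0.12 to 0.35) in SAP30-KO2, and IL6 (-0.64 to 0.076), CSF2 (-0.59 to 0.075), and CXCL2 (-0.14 to 0.28) in MLL1-KO1, as well as IL1A (-0.37 to 0.198), LIF (-0.10 to 0.17), CSF2 (-0.27 to 0.398), and CXCL2 (-0.028 to 0.98) in SIN3A/3B-DKO2. IL1A in SIN3A/3B-DKO2 was also 0.011 under quantile normalization, and LIF -0.063 with the neighborhood median subtracted. Quantile normalization moved the median of all genes by 0.12 in MLL1-KO1, and no member called in that line changed direction. The causes of these changes were not tested. At 2 to 23 reads per library IL1A is limited by depth, as is IL1B outside MLL1-KO1.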
